A study of Saccharomyces cerevisiae with 4 samples.

Results

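DNA repair, checkpoint and nucleotide supply genes were examined for binding of Swc4 in budding yeast, Saccharomyces cerevisiae. The set was a named list of 37 genes, out of 6002 nuclear protein-coding genes, chosen by function with earlier results of these data known. The rule that names it uses no measured value. It held 16 genes of recombination and repair of broken ends, 11 checkpoint genes, 6 genes of nucleotide supply and 4 genes for the single-strand binding complex RPA and the sliding clamp PCNA. A gene counted as having a promoter peak when a called peak overlapped the 500 bp upstream of its coding start by 1 bp or more.

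Swc4 was mapped by chromatin immunoprecipitation and sequencing with an antibody against myc. All cells were haploids of the BY laboratory background, carried Swc4 fused to 13 copies of the myc tag, and were grown untreated in rich YPD medium to mid-log phase. The wild_type group carried no other change that the labels name, and each group had 2 libraries. That the yaf9d group lacked YAF9 is from the sample titles, since the genotype field of these samples repeats the tag. An untagged strain is not analysed here, and the labels do not say whether libraries of a group came from separate cultures. All values are from the authors' peak lists, which held 884 (replicate 1) and 704 (replicate 2) nuclear peaks for wild_type, and 616 and 1139 for yaf9d. Each peak has a summit, a fold (the authors' ratio of summit signal to local background) and a q-value, given as −log10 q, for which larger numbers mean stronger calls. Where 4 values stand together, they are in the order wild_type replicate 1, wild_type replicate 2, yaf9d replicate 1 and yaf9d replicate 2. A gene without a peak was not called and is not shown to be unbound.

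Swc4 belongs to the SWR1 complex, which places the histone variant H2A.Z beside promoters, and to the NuA4 histone acetyltransferase. Yaf9, a reader of acylated histone H3, is part of both complexes. Broken DNA ends are trimmed, coated by RPA and paired with a homologous copy by the recombination proteins. The checkpoint kinases sense such single-stranded or broken DNA, delay division and raise the supply of deoxyribonucleotides through ribonucleotide reductase.

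The deleted and the tagged gene were looked at first. No library had a peak over the YAF9 gene itself. In both yaf9d libraries a peak on chromosome XIV began at position 420779, the base after the last base of YAF9, with folds of 4.88 and 4.66, and neither wild_type library had a peak there. A peak in the 500 bp upstream of YAF9 was called in yaf9d replicate 2 alone, with its summit 385 bp upstream and a fold of 2.31. SWC4 had no promoter peak in any library.

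Swc4 peaks were present upstream of 8 of the 37 genes in at least 1 library, and 29 had none in any. The 8 were MEC1, TEL1, RNR2, RNR4, RMI1, MUS81, RAD57 and RAD54. By library, the peak lists touched 5 and 6 of these promoters for wild_type and 6 and 7 for yaf9d. These counts are 13.5%, 16.2%, 16.2% and 18.9% of the set, beside 15.9%, 14.3%, 11.2% and 13.6% of all protein-coding genes. A promoter peak in any library was found for 21.6% of the set and 26.0% of all genes, so the set lay near the genome as a whole by these counts.

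MEC1, TEL1, RNR2 and RMI1 had a promoter peak in all 4 libraries, 10.8% of the set beside 4.83% of all genes. That count of 4 went to 1, RNR2, when peaks needed a fold of 2 or more (2.97% of all genes) or a −log10 q of 5 or more (4.03%). It went to 2, RNR2 and RMI1, when a peak had to cover 100 bp of the promoter (3.82% of all genes). It went to 0 when the summit had to lie in the 500 bp window (1.88% of all genes) and when the promoter was narrowed to 250 bp (2.85%).

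**Figure D1:**
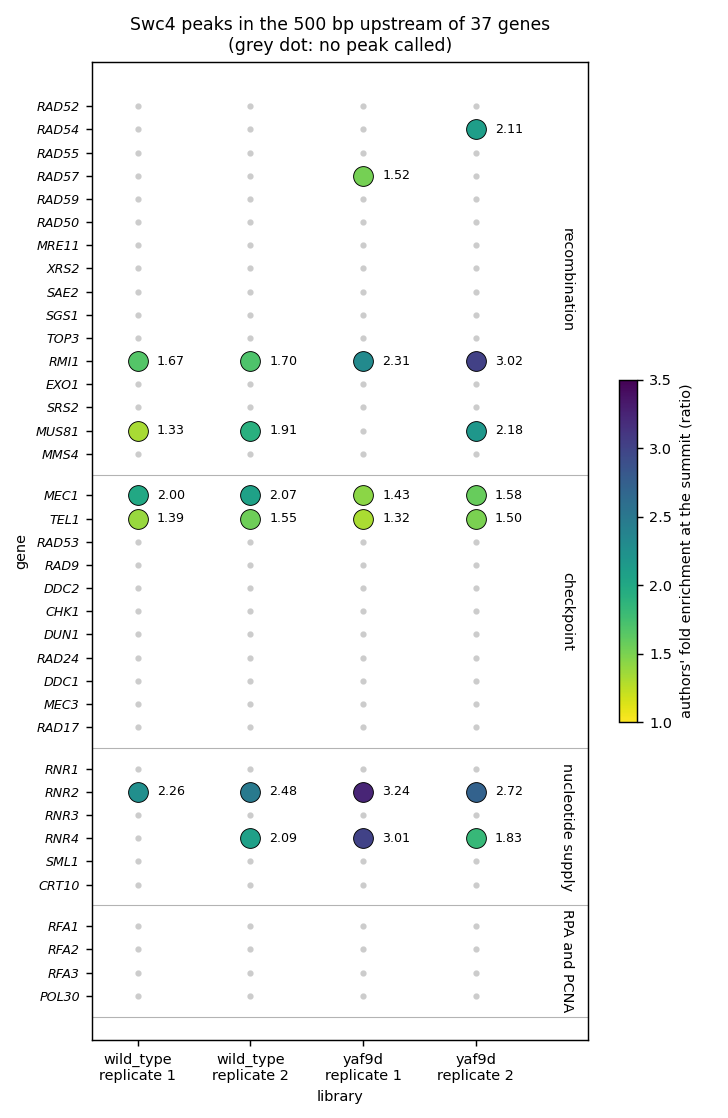
Promoter peaks of the 37 genes (rows, by class) in the 4 libraries (columns), with colour and number giving the authors' fold enrichment at the summit and grey dots marking no call. MEC1, TEL1, RNR2 and RMI1 are called in each library, and 29 rows hold no call.

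The calls were spread over 3 of the 4 classes. Among the 16 recombination genes, each wild_type library called 2, and the yaf9d libraries called 2 and 3. Among checkpoint genes 2 of 11 had one in each library, and these were the same kinase genes, MEC1 and TEL1. Among the 6 nucleotide supply genes, the wild_type libraries called 1 and 2, and each yaf9d library called 2. None of the 4 RPA and PCNA genes had one in any library, as was so for 74.0% of all genes. By library, shares were 12.5% to 18.8% for recombination, 18.2% for checkpoint and 16.7% to 33.3% for nucleotide supply genes. Those of all protein-coding genes were 11.2% to 15.9%. With classes this small, 1 gene moves a share by 6.25 percentage points for recombination and by 16.7 for nucleotide supply.

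**Figure D2:**
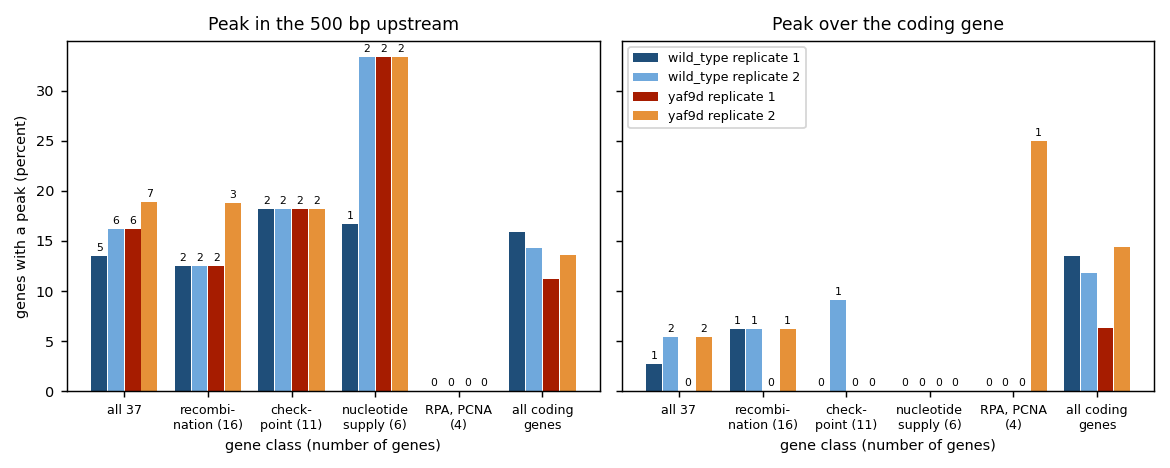
Percentage of genes with a peak in the 500 bp upstream (left) or over the coding gene (right), for the 37 genes, their 4 classes and all protein-coding genes, with bars for the 4 libraries and the number of genes above each class bar. Shares upstream lie near those of all genes for the full set, and shares over coding genes reach at most 5.41% for the set beside 6.3% to 14.4% of all genes.

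The genotypes were compared over libraries. Wild_type libraries called a mean of 5.5 ± 0.707 promoters of the set (SD, n = 2), and yaf9d libraries called 6.5 ± 0.707 (SD, n = 2). The exact permutation test, two-sided, gave p = 0.667. The groups overlapped, since wild_type replicate 2 and yaf9d replicate 1 both had 6 genes. With 2 libraries against 2 this test cannot go below 0.333. The difference of 1 gene changed sign, to -0.5, with a 1000 bp promoter or with 100 bp of the promoter covered, so no direction is given. For recombination genes alone the difference of 0.5 was 2 with a fold of 2 or more and 1.5 with a −log10 q of 5 or more, and -0.5 in 3 other settings (exact p of 0.333 or more in each). Over all genes, wild_type libraries called a mean of 905.5 ± 65.8 promoters and yaf9d libraries 744.5 ± 98.3 (SD over 2 libraries; p = 0.333 by the same exact test). No gene of the set was called in both libraries of a genotype and neither of the other, patterns met by 3.23% (wild_type) and 1.5% (yaf9d) of all genes. Under stricter calls each pattern held 1 gene of the 37. With a fold of 2 or more MEC1 was called in wild_type alone (0.916% of all genes) and RMI1 in yaf9d alone (1.45%). Both were in these patterns also with a −log10 q of 5 or more (2.33% and 1.8% of all genes). A fold of 2 was not an equal cut in each list. It was passed by 66.9% of peaks in yaf9d replicate 1 and by 44.6% or less in each other list. RMI1 passed in yaf9d replicate 1 at 2.31, below that list's median of 2.5. MEC1 in wild_type replicate 1 had a listed fold of 2.0, at the cut itself. Any bearing of list scale on these patterns was not tested.

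The peak upstream of MEC1 lay mainly over the neighbouring gene CKS1. MEC1 encodes the checkpoint kinase related to mammalian ATR, and CKS1 encodes a small protein that binds the cyclin-dependent kinase Cdc28. CKS1 reads in the same direction and occupies the stretch from 814 to 362 bp upstream of MEC1. The peak ran on chromosome II from 504711 to 505226 in wild_type replicate 1, with summits 795 and 792 bp upstream of MEC1 in the wild_type libraries. In yaf9d replicates 1 and 2 the summits were 636 and 545 bp upstream, closer to MEC1 than both wild_type summits, a description that was not tested. Every summit was inside CKS1, and 35 to 60 bp of the MEC1 promoter were covered. The peak also overlapped the 500 bp upstream of CKS1 in each library. Except in yaf9d replicate 2, it overlapped that of HSL7 too, the next gene upstream, which reads the opposite way.

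The fold at MEC1 was 2.0 in wild_type replicate 1, 2.07 in replicate 2, and 1.43 and 1.58 in the yaf9d libraries. Within its own list, ordered from 0% for the strongest peak, it ranked at 36.5%, 39.5%, 93.8% and 69.9%. The −log10 q-values were 10.02, 10.6, 1.82 and 3.87, so the call of yaf9d replicate 1 was close to the end of its list. Summit pileups worked out from the listed values were 124, 120, 89 and 103 over backgrounds of 61.4, 57.6, 62.0 and 64.6. Folds and ranks belong to separate lists, and no genotype difference was tested on them.

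TEL1, the kinase gene related to mammalian ATM, had its upstream peak over RPL23A. RPL23A encodes a protein of the large ribosomal subunit, reads in the same direction as TEL1 and ends 440 bp upstream of it. The 4 summits lay 683, 694, 696 and 658 bp upstream of TEL1, within 38 bp of each other and all inside RPL23A. In wild_type replicate 1 the peak ran on chromosome II from 59818 to 60228.

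The folds at TEL1 were low, at 1.39 and 1.55 in wild_type and 1.32 and 1.5 in yaf9d, and its ranks were from 78.9% to 98.5% of the lists. Background pileups of 150 to 200 there were above those at MEC1. Between 54 and 114 bp of the TEL1 promoter were covered. RPL23A has a near-identical copy, RPL23B, and how reads shared by such copies were placed is not given in the sources used here. Any bearing of this on the values at TEL1 was not tested.

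RNR2 had the best-ranked promoter peak of the set in 3 of the 4 libraries. It encodes the small subunit of ribonucleotide reductase that carries the radical cofactor. The peak spanned about 1 kb, on chromosome X from 391150 to 392089 in wild_type replicate 1 and from 391138 to 392164 in yaf9d replicate 1. Its near edge was 315, 284, 240 and 262 bp upstream of RNR2, so the peak stopped short of the coding start in each library. It covered the open reading frame YJL028W and part of YJL027C, which lie between RNR2 and VPS53, a gene for a vesicle tethering subunit.

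The RNR2 folds were 2.26, 2.48, 3.24 and 2.72 and the ranks 25.2%, 25.1%, 34.3% and 21.0%. Pileups were 108, 112, 115 and 128 over backgrounds of 47.2, 44.6, 34.8 and 46.4. The summit was placed 1062, 1073 and 1078 bp upstream in both wild_type libraries and yaf9d replicate 2, near the start of YJL028W. In yaf9d replicate 1 it was 445 bp upstream, inside YJL027C, at the other end of an interval of much the same extent. A tRNA gene for elongator methionine tRNA, EMT5, sits from 1361 to 1289 bp upstream, and the peak of wild_type replicate 2 alone reached it.

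RNR4, the gene for the partner small subunit, had a promoter peak in 3 libraries. The folds were 2.09 in wild_type replicate 2 and 3.01 and 1.83 in yaf9d replicates 1 and 2, and wild_type replicate 1 had no call, with its nearest summit 5146 bp away. Summits were 608, 463 and 509 bp upstream of RNR4, in the long stretch without coding genes that ends at TIM13, a gene of mitochondrial import. The peak of yaf9d replicate 1 ran on chromosome VII from 856615 to 856961. In wild_type replicate 2 the peak was 1256 bp wide and also covered a tRNA gene, YNCG0040C, from 1190 to 1077 bp upstream.

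The other nucleotide supply genes, 66.7% of the class, had no promoter peak, beside 74.0% of all genes. RNR1 and RNR3 encode the large subunits of the reductase, SML1 its protein inhibitor, and CRT10 a regulator of reductase gene expression. RNR1 was 4010 bp or more from the nearest summit in every library, and SML1 3217 bp or more. Near RNR3, wild_type libraries had a peak over EFM4 with summits 1355 and 1515 bp upstream and folds of 1.85 and 1.76. Near CRT10, wild_type libraries had a peak over PRS5 with summits 2025 and 2229 bp upstream and folds of 2.62 and 1.58.

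**Figure D3:**
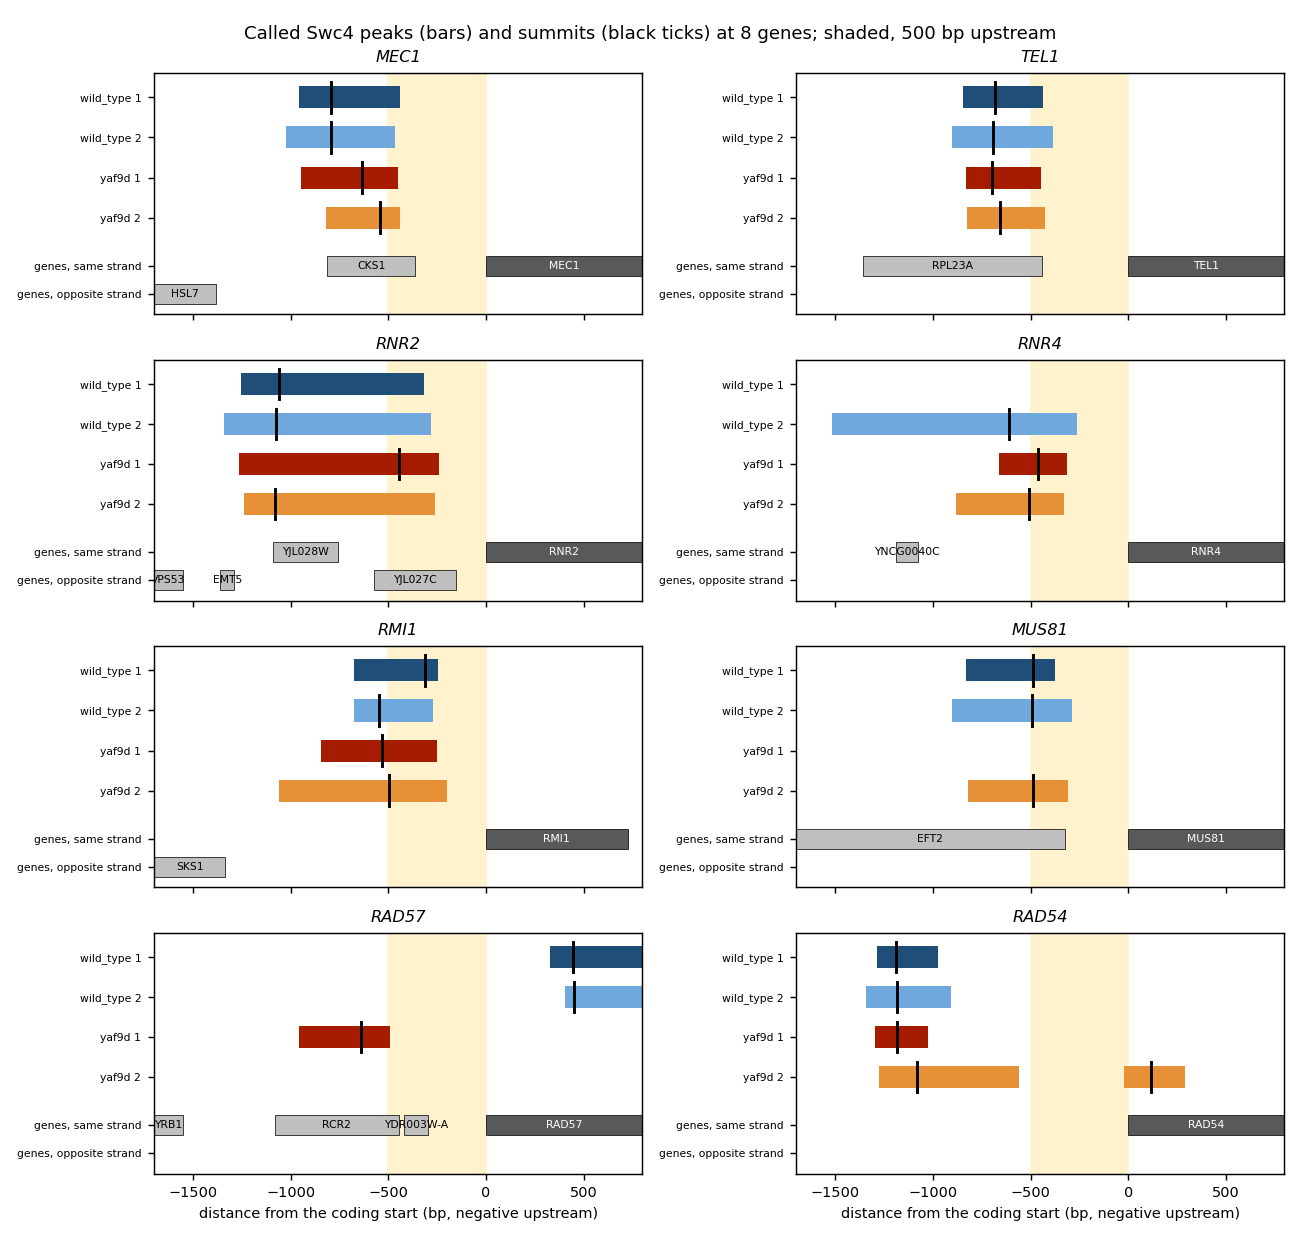
Called peaks (bars, 1 row per library) and summits (black ticks) against distance from the coding start in bp for the 8 genes with a promoter peak, with the 500 bp upstream shaded and neighbouring genes drawn below by strand. Summits at MEC1, TEL1 and MUS81 fall inside CKS1, RPL23A and EFT2, and those at RMI1 and RNR4 fall between genes.

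RMI1 was the recombination gene with a promoter peak in all 4 libraries, and its peak lay between genes. Rmi1 works with the helicase Sgs1 and the topoisomerase Top3 to take apart joined DNA molecules. The upstream neighbour, the kinase gene SKS1, reads away from RMI1 and starts 1334 bp upstream, which leaves a long shared promoter region. The summits were 314 and 548 bp upstream in wild_type and 535 and 496 bp in yaf9d, and the peak covered 229 to 302 bp of the RMI1 promoter.

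The RMI1 fold was 1.67 in wild_type replicate 1, 1.70 in replicate 2, and 2.31 and 3.02 in the yaf9d libraries. Set against the list medians of 1.83, 1.92, 2.50 and 1.80, it was above the median in yaf9d replicate 2 and below it in the other lists. Its ranks were 64.4%, 69.0% and 55.7% in the first 3 lists and place 194 of 1139 in yaf9d replicate 2, ahead of the other promoter peaks of the set in that list. The peak was 432 and 404 bp wide in wild_type and 593 and 864 bp wide in yaf9d, and both yaf9d peaks reached into the 500 bp upstream of SKS1, on chromosome XVI from 502674 and from 502455. Pileups were 84, 65, 102 and 149 over backgrounds of 49.9, 37.8, 43.6 and 48.6. SGS1 and TOP3, whose products act with Rmi1, had no promoter peak, and their nearest summits lay at least 2395 and 2867 bp away.

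MUS81 encodes a structure-selective endonuclease subunit and had a promoter peak in 3 libraries. Its summits were 489 and 492 bp upstream in wild_type and 487 bp upstream in yaf9d replicate 2, within 5 bp of each other. All were inside the 3′ part of EFT2, the gene for translation elongation factor eEF2, which ends 326 bp upstream of MUS81. The folds were 1.33, 1.91 and 2.18, and yaf9d replicate 1 had no call there. Background pileups of 214, 123 and 140 were again high. EFT2 has a near-identical copy, EFT1, so the placing of shared reads is unknown here as at RPL23A. Any bearing of it on the values at MUS81 was not tested. MMS4, which encodes the partner of Mus81, had no summit within 11563 bp in any library.

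RAD57 and RAD54 each had a promoter peak in 1 library, and only by a margin of the window. Rad57 forms a pair with Rad55 that assists strand exchange, and Rad54 is a DNA translocase that acts in the same step. The RAD57 call rested on 9 bp, at a peak over RCR2 in yaf9d replicate 1 with a fold of 1.52. In wild_type a peak lay within the RAD57 coding sequence instead, with summits 445 and 449 bp after the coding start and folds of 1.91 and 1.52, and neither yaf9d library had it. The RAD54 call rested on 23 bp, at a peak in yaf9d replicate 2 with its summit 116 bp into the gene and a fold of 2.11. It was the 1 promoter peak of the set that covered a coding start.

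A separate peak beyond the RAD54 window was present in all 4 libraries. Its summits were 1190 and 1186 bp upstream in wild_type and 1184 and 1083 bp in yaf9d, between RAD54 and SUT1, a transcription factor gene that reads the opposite way. The folds were 2.02, 2.05, 2.15 and 2.12. Downstream of RAD55, a peak between genes was likewise called in each library, 1644, 1653, 1648 and 1696 bp from the RAD55 coding start, with folds of 2.19, 2.88, 2.29 and 2.47.

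Over the 4 lists, the 8 genes had 24 promoter peaks, of which 7 had their summit in the 500 bp window. A summit in the window was present at 2 and 1 genes in wild_type and at 2 in each yaf9d library, beside 5.86%, 4.85%, 5.68% and 6.13% of all genes. Inside another protein-coding gene lay 16 of the 24 summits, 7 lay in no gene and 1 in the gene itself. By library, 4 of 5, 4 of 6, 4 of 6 and 4 of 7 called genes had a summit inside another coding gene. Among all genes with a promoter peak, 375 of 952, 282 of 859, 135 of 675 and 282 of 814 had one. The same few loci recur in these counts, so they are not independent, and the difference was not tested.

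**Figure D4:**
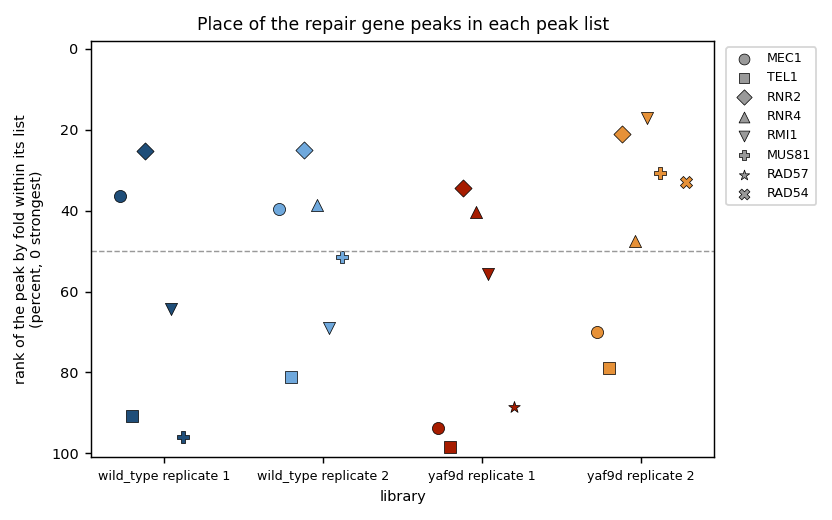
Rank of each promoter peak of the set by fold within its own list, in percent with 0 the strongest, for the 4 libraries, with a dashed line at the middle of the list. RNR2 stays between 21.0% and 34.3%, and TEL1 lies at 78.9% or beyond in each list.

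The set's promoter peaks were of ordinary strength within their lists. Their median fold was 1.67, 1.99, 1.92 and 2.11, beside 1.83, 1.92, 2.50 and 1.80 for all peaks. The number above the list median was 2 of 5, 3 of 6, 2 of 6 and 5 of 7. The highest fold of the set was 3.24, at RNR2 in yaf9d replicate 1, where the strongest peak of the list had 15.04.

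Peaks over the coding sequences of the set were few. They were present at 1 and 2 genes in wild_type and at 0 and 2 in yaf9d, which is 2.7%, 5.41%, 0% and 5.41% of the set beside 13.5%, 11.8%, 6.3% and 14.4% of all genes. The genes were RAD57 in both wild_type libraries (a pattern, with no yaf9d call, met by 2.8% of all genes), MEC3 in wild_type replicate 2, and RAD54 and RFA1 in yaf9d replicate 2. MEC3 belongs to the checkpoint clamp, and its peak had a summit 1326 bp into the gene with a fold of 2.26. RFA1 encodes the large RPA subunit, and its peak had a summit 1137 bp into the gene with a fold of 2.16. No peak was called over the long coding sequences of MEC1 and TEL1.

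For the 29 genes without a promoter peak, distances to the nearest summit are given. Over all 37 genes, 5, 6, 6 and 7 had a summit within 1000 bp of the coding start, which is 13.5%, 16.2%, 16.2% and 18.9% beside 22.2%, 18.0%, 14.9% and 23.2% of all genes. Among the 29, which their lack of a promoter peak keeps from nearby upstream summits, RFA3 alone had such a summit. RFA3 encodes the small RPA subunit and in yaf9d replicate 2 had a summit 874 bp downstream over the neighbouring KRE9 and a fold of 1.67. Over all 37 genes the median distance to the nearest summit was 4010 and 5874 bp in wild_type and 8042 and 4100 bp in yaf9d. For all protein-coding genes it was 4149 and 5393 bp in wild_type and 6615.5 and 3596 bp in yaf9d.

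The 9 checkpoint genes other than MEC1 and TEL1 were all among these, 81.8% of the class beside 74.0% of all genes. DDC2, the partner of Mec1, was at least 11446 bp from a summit. The effector kinase genes RAD53, CHK1 and DUN1 were at least 4100, 7163 and 5431 bp away, and the adaptor gene RAD9 at least 4042 bp. RAD24, which encodes the clamp loader subunit, was at least 8553 bp away, and DDC1, of the clamp itself, at least 30921 bp. MEC3, another clamp gene, was described above. RAD17, the remaining clamp gene, had a summit 1462 bp downstream over RPS12 in wild_type replicate 2 and 1468 bp downstream in yaf9d replicate 2.

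Genes that process broken ends were also without promoter peaks, as were 75.0% of the recombination class and 74.0% of all genes. MRE11, RAD50 and XRS2 encode a complex that binds and trims ends, and their nearest summits were at least 4945, 1500 and 8249 bp away. SAE2, its cofactor, was at least 6455 bp away, and EXO1, a resection nuclease gene, at least 2256 bp. RAD52, which encodes the central mediator of recombination, was at least 4214 bp away and its relative RAD59 at least 2194 bp. SRS2, a helicase gene, was at least 11143 bp away. RFA2 and POL30, the PCNA gene, were at least 7465 and 1622 bp away.

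**Figure D5:**
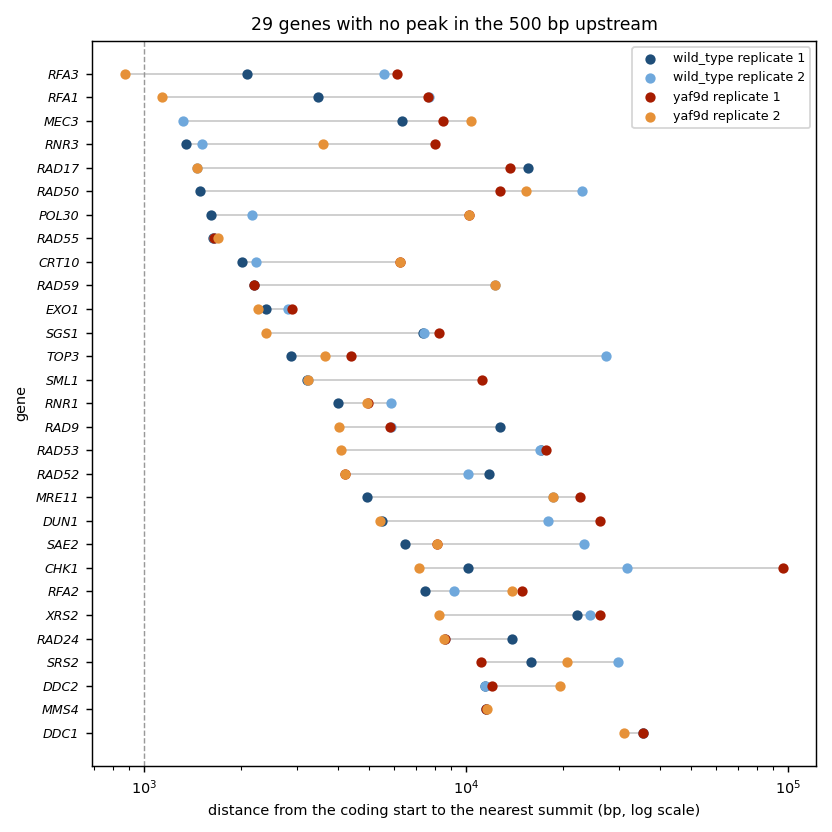
Distance from the coding start to the nearest summit (log axis, bp) for the 29 genes with no promoter peak, with a point for each library and a dashed line at 1000 bp. RFA3 in yaf9d replicate 2, at 874 bp, is the point inside the line.

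A second list of 51 genes of excision repair, postreplication repair, end joining, replication forks and nucleotide metabolism was read in the same way. The wild_type libraries called 6 and 5 of these promoters and the yaf9d libraries 3 and 4, with means of 5.5 ± 0.707 and 3.5 ± 0.707 (SD over 2 libraries). The exact permutation test, two-sided, gave p = 0.333, the lowest value it can take here. These are 11.8%, 9.8%, 5.88% and 7.84% of the list, below the shares of all genes given above in each library.

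DCD1, the gene for dCMP deaminase in nucleotide supply, was the 1 gene of that list with a promoter peak in all 4 libraries. That is 1.96% of the list, beside 4.83% of all genes. The DCD1 folds were 3.13, 3.85, 5.24 and 5.01, above every promoter peak of the main set in the same library. The summits, 218, 196, 208 and 203 bp upstream, all fell inside the tRNA gene SUF8. ELG1, whose product unloads PCNA, was called upstream in wild_type replicates 1 and 2 and not in yaf9d, with folds of 1.93 and 2.48 over the ribosome assembly gene PNO1. The same place was called in yaf9d replicate 2, with a summit 869 bp upstream and a fold of 2.25, in a narrower peak that ended before the promoter window. The promoter pattern of ELG1 was met by 1.96% of the list, beside 3.23% of all genes. DIF1 and SSL2 met such a pattern under stricter calls only. At a fold of 2 and at a −log10 q of 5, DIF1 was called in yaf9d alone and SSL2 in wild_type alone. The shares of all genes, and the limit of a fixed fold, are those given above for RMI1 and MEC1. DIF1 folds were 1.25 in wild_type replicate 1 and 3.09 and 2.38 in yaf9d. SSL2 folds were 3.28 and 2.22 in wild_type and 1.52 in yaf9d replicate 2.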

How the data were processed

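Each of the 4 libraries has 1 deposited peak list. The submitters' processing notes name MACS2 (version 2), BWA 0.7.15-r1140 and SAMtools 1.4. What each did, the build of the genome, any control and the calling threshold are not given. For each peak the authors deposited a fold (a ratio of summit signal to local background), the −log10 of its p-value and of its q-value (1.31 or more), a summit offset, and a score, which was not used. Folds were ranked only within a list. The stricter settings applied the same minimum fold, or the same minimum −log10 q, to all lists. Calls under these settings were compared between genotypes, without a correction for the scale of each list.

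Peaks on nuclear chromosomes were used. Starts are 1-based. Genes came from RefSeq's R64 table, with strand from the systematic name, and 36 members matched by symbol and 1, DDC2 (LCD1), by an older name. As a build check, 88.3% of 298 summits within 300 bp of a tRNA gene's middle lay within 100 bp of it. Coordinates of that table are not printed, and promoter sequences are not used here.

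Depth is unknown, since no read totals come with the lists. Summit pileups were worked out as whole numbers that gave the listed p-value within 0.001 as a Poisson upper tail, with the fold read as pileup plus 1 over background plus 1. This worked for 98.7% to 99.9% of peaks per list. They are on the caller's scale.

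Genotypes were compared by exact two-sided permutation of library values. The p-value is the share of relabellings of the libraries with a mean difference at least as large as the observed one. Differences between libraries may be technical. No test was run on the list against other genes. The members, lists and classes were chosen with earlier results of these data known. All 37 members are named, and so are YAF9 and SWC4. Of the other 51 genes, those called in all 4 libraries or in both of 1 genotype and neither of the other are named. DIF1 and SSL2 are named because they met a pattern of 1 genotype under stricter calls. Alternatives were a −log10 q of 5, a fold of 2, summits in the window, windows of 250 and 1000 bp, 100 bp covered, each library left out and a replicate block. The calling of promoters was tested on simulated peaks placed in the middle of promoter windows. It was not aimed at calls that rest on a few bp at a window's edge. Python 3.11.15, pandas 2.3.3, numpy 2.4.6, scipy 1.17.1 and matplotlib 3.10.9 were used.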

Additional observations from a re-analysis of the deposited data

How the results depend on the processing

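The difference in members with a promoter peak, yaf9d minus wild_type, was 1 gene and became -0.5 with a 1000 bp promoter and with 100 bp covered, and it was 0.5 to 1.5 with each library left out. For recombination genes 0.5 became 2 at a fold of 2 (exact p = 0.333), 1.5 at a −log10 q of 5 (exact p = 0.667), and -0.5 with summits in the window, with a 1000 bp promoter and with 100 bp covered, and ranged from 0 to 1 with each library left out. For checkpoint genes 0 became -1.5 at a −log10 q of 5, -1 at a fold of 2 and -0.5 with 100 bp covered. For nucleotide supply genes 0.5 became 1 with summits in the window, 0 at a fold of 2 and with a 1000 bp promoter, and ranged from 0 to 1 with each library left out. The cause was not tested, and the exact permutation p was 0.333 or more throughout. The count in all 4 libraries went from 4 to 1 at a −log10 q of 5 and at a fold of 2, to 0 with summits in the window and with a 250 bp promoter, and to 2 with 100 bp covered. The count in any library went from 8 to 4 with summits in the window, 3 with a 250 bp promoter and 5 with 100 bp covered. The counts in both libraries of wild_type alone and of yaf9d alone each went from 0 to 1 at a −log10 q of 5 and at a fold of 2 (MEC1 and RMI1 in that order), and each ranged from 0 to 1 with a library left out.

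Replicate numbers are shared by the groups, but the labels do not say that they pair libraries. Deviations of same-numbered libraries had a correlation of -0.0291 over promoter calls of all genes. The replicate block changes only the permutation, so the difference of 1 gene over all members and the calls stay as they were. Its exact p was 0.5, the smallest this block allows. Peak lists without read totals limit what a missing call can say.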
